A study of Danio rerio with 14 samples.

Results

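The anterior hox genes of paralog groups 1 and 2 on the zebrafish GeneChip array are hoxa1a, hoxb1a, hoxc1a, hoxa2b and hoxb2a, 5 of the 42 hox genes and of the 8793 genes that its probe sets name. Members were taken by gene symbol in the probe annotation of the array, and a gene with more than 1 probe set was represented by the one with the highest mean over the arrays. Expression was measured in 14 samples in 7 groups of 2: zebrafish embryos treated with retinoic acid (RA) and untreated embryos, each collected at 4, 6 and 9 hpf (hours post fertilization), and the fibroblastic cell line ZF4. The embryos were whole, came from natural matings of the Ekkwill strain, and RA was added during early cleavage according to the study's methods. The labels and methods name no mutation or transgene in any group. ZF4 is 1 established line grown in culture, and its labels name no RA treatment. In RNA from a whole embryo, fewer cells that express a gene and less transcript per cell cannot be told apart. Separate clutches or cultures are not named for the replicates, so each p-value covers only the spread between these samples, which may be technical.

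Hox genes encode homeodomain transcription factors that give cells their position along the head to tail axis. They lie in clusters, with paralog groups 1 and 2 at the 3′ end, and in vertebrates genes of the 3′ end are in general activated first and expressed farthest anterior, in the hindbrain and the neural crest that leaves it. RA is made by mesoderm from the gastrula onward and binds nuclear receptors of the RAR and RXR families, which occupy response elements in the hox clusters of vertebrates. In zebrafish, hoxb1a gives rhombomere 4 of the hindbrain its identity and maintains its own transcription together with cofactors of the Pbx and Meis families. The genes hoxa2b and hoxb2a act in the hindbrain and in the neural crest of the second pharyngeal arch. The zebrafish gene hoxb1b, which acts in the gastrula before hoxb1a, was not analysed here.

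The members have the Entrez gene identifiers 58051 (hoxa1a), 30337 (hoxb1a), 58046 (hoxc1a), 30325 (hoxa2b) and 30338 (hoxb2a). Each has 1 probe set except hoxb2a, which has 2, called here the higher (mean 4.94 over the arrays) and the lower (2.96). In the RefSeq annotation of the GRCz12tu assembly, hoxb1a and hoxb2a are neighbours at the end of their cluster, and cbx1a is the next coding gene beyond hoxb1a. The other members lie at the ends of other clusters, with snx10a beyond hoxa1a, cbx5 beyond hoxc1a and skap2 beyond hoxa2b. RefSeq gives hoxa3a as an older name of hoxa1a, while another probe set carries the symbol hoxa3a in the annotation of the array. The sequence of the hoxa1a probe set was not used here, so the values given for hoxa1a may belong to another gene.

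Values are log2 expression values per probe set. A control level was taken from the 17 tag probe sets of the array, whose sequences belong to no zebrafish gene: the 95th percentile of their 238 values was 5.30 and their median 3.06. A gene is called above the control level in a group where both arrays exceed it. If a group had no array above it, 5.30 stood in for its values and the fold change is a lower bound ("at least"). Array medians lay between 6.109 and 6.305, and replicates correlated at 0.9288 to 0.9521 across probe sets. Replicate 2 of RA-treated embryos at 9 hpf correlated more with replicate 1 of untreated embryos at 9 hpf (0.9586, the highest of 91 pairs) than with its own replicate (0.9299), and replicate 1 of the RA-treated embryos likewise with replicate 2 of the untreated embryos (0.9436). The medians of the tag controls ran from 1.828 to 3.906 over the arrays, with 3.556 and 3.395 in RA-treated embryos at 6 hpf against 1.828 and 1.944 in untreated embryos at 6 hpf. Of 11 gastrula markers, 11 were above the control level in untreated embryos of 6 and 9 hpf and in RA-treated embryos of 9 hpf, and 9 were in RA-treated embryos of 6 hpf. ZF4 cells had 0 of the 11 gastrula markers and 7 of 9 fibroblast markers above it, against 5 of 9 in RA-treated embryos at 9 hpf and 5 of 9 in untreated embryos at 9 hpf. In limma 5 of the 9 fibroblast markers were higher in ZF4 cells than in these untreated embryos and 2 were lower, beside 45.4% of all probe sets. The collagen gene col1a1a averaged 11.56 in ZF4 cells and 5.53 in the untreated embryos. The lower ones were thy1 (4.11 against 7.97) and fn1b (5.15 against 8.77).

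No member was above the control level at 4 hpf, with or without RA. At 6 hpf, 2 of 5 members were above it in RA-treated embryos (hoxb1a and hoxc1a) and 0 of 5 in untreated embryos. At 9 hpf, 2 of 5 were above it in RA-treated embryos (hoxb1a and hoxb2a) and 1 of 5 in untreated embryos (hoxb1a). ZF4 cells held 2 of 5 (hoxa1a and hoxb2a). Over all 15502 probe sets the share above the level was between 55.1% and 58.5% in every group. With the 95th percentile of each array's own tag controls in its place, 1 member was above the level in RA-treated embryos at 4 hpf (hoxb2a) and 3 at 9 hpf, and the other groups had the same counts.

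**Figure D1:**
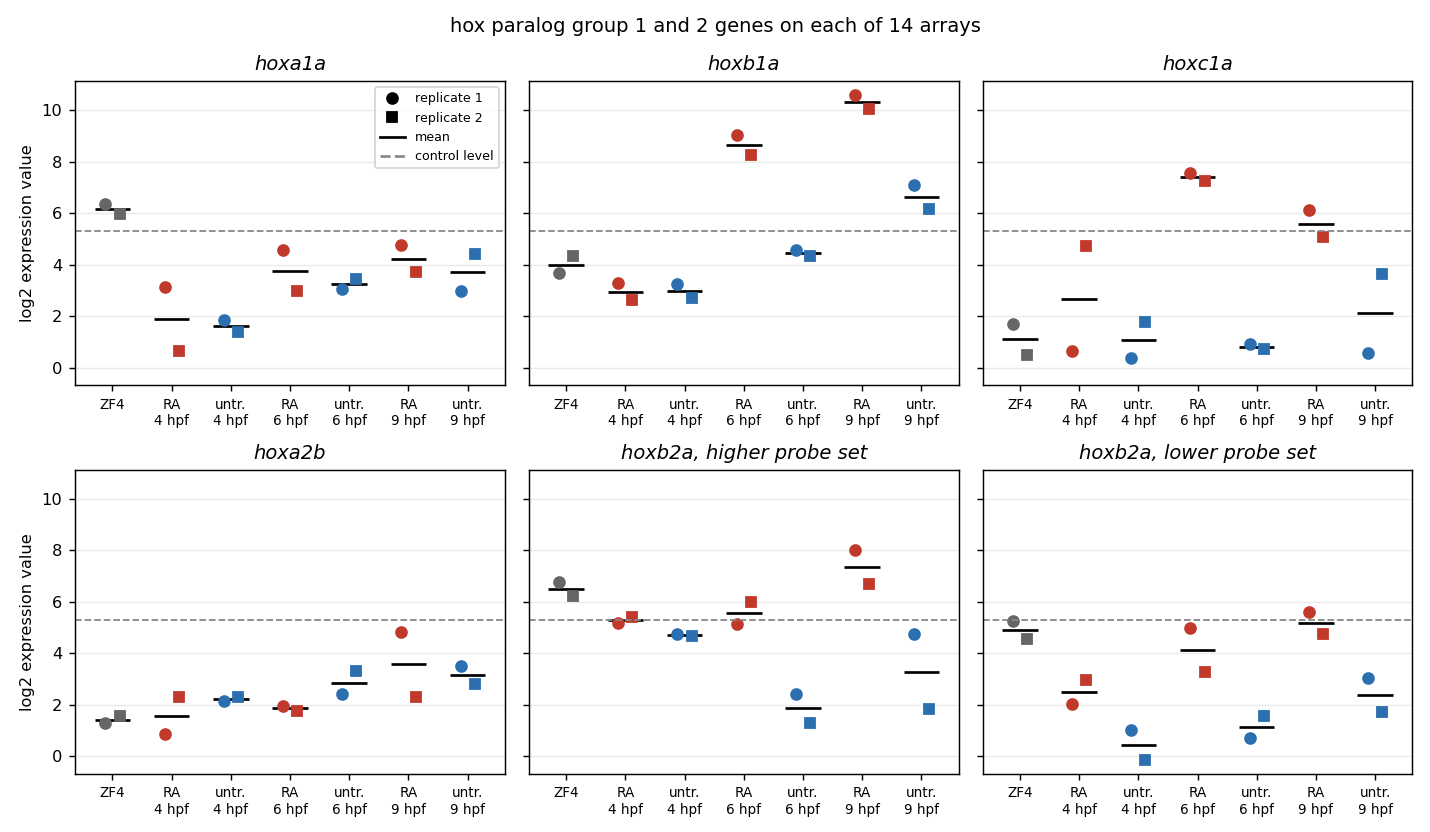
Log2 expression values of the 5 members, and of the lower probe set of hoxb2a, on each of 14 arrays. Circles and squares are replicates 1 and 2, black bars are group means, and the dashed line is the control level of 5.30. hoxb1a stands above the line in RA-treated embryos of 6 and 9 hpf and in untreated embryos of 9 hpf, while hoxa2b stays below it on all 14 arrays.

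Of the members, hoxb1a changed most clearly with RA. It had values of 9.04 and 8.26 in RA-treated embryos at 6 hpf, against 4.58 and 4.35 in untreated embryos at 6 hpf. RA-treated embryos of 9 hpf had 10.60 and 10.05, against 7.09 and 6.16 in untreated embryos. At 4 hpf it had 3.28 and 2.62 in RA-treated embryos, against 3.25 and 2.69 in untreated embryos. Both RA-treated arrays thus lay above both untreated arrays at 6 and 9 hpf, whereas at 4 hpf the groups overlapped and lay under the control level. On the 6 arrays where hoxb1a exceeded the control level, all 17 tag controls were lower than hoxb1a. Set against the tag median of its own array, hoxb1a stood 5.49 and 4.87 above it in RA-treated embryos at 6 hpf, against 2.75 and 2.41 in untreated embryos. At 9 hpf the same distances were 6.82 and 7.13 in RA-treated embryos, against 3.82 and 2.26 in untreated embryos. The groups remained apart on this scale at both stages.

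At 6 hpf hoxb1a rose with RA by 4.19 ± 0.48 on the log2 scale (SE, 95% interval 3.13 to 5.24, n = 2 each), an increase of at least 10.2-fold (adjusted p = 0.00567, limma with Benjamini-Hochberg adjustment over all probe sets). It was the 1 of 5 members that passed the threshold of 0.05, beside 0.284% of all 15502 probe sets, or 44, and it was number 12 of these by p. The call was lost when single arrays were left out: the adjusted p was 0.0877 and 0.0579 without replicates 1 and 2 of the RA-treated embryos, and 0.0601 without replicate 2 of the untreated embryos. Leaving out any 1 of the 4 arrays lowered the number of probe sets that passed from 44 to between 1 and 19. Over its 11 alternative settings, the change of hoxb1a ran from 3.01 to 4.58 and its adjusted p from 0.0027 to 0.0877.

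At 9 hpf the difference in hoxb1a was 3.70 ± 0.48 (95% interval 2.64 to 4.75), or 13-fold between groups that both lay above the control level. Its p of 1.35e-05 was the lowest of all 15502 probe sets in limma, yet the adjusted p was 0.17 and hoxb1a did not pass the threshold. None of the 5 members passed, where 0% of all probe sets did: limma called 0 of 15502 and 424 had an unadjusted p under 0.05, among them hoxb1a, hoxc1a and hoxb2a. With the test run on log2(value + 32), which compresses the differences of dim probe sets, 4 probe sets passed and hoxb1a was one of them (adjusted p = 0.0104, in a range from 0.0104 to 0.421 over its alternatives). At 4 hpf 0 of 5 members passed beside 0.0903% of all probe sets, with 0 members at an unadjusted p under 0.05. The change of hoxb1a there was -0.02 ± 0.48, with an interval from -1.08 to 1.03.

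hoxb1a also differed between stages. In untreated embryos it averaged 2.97 ± 0.40 at 4 hpf, 4.47 ± 0.16 at 6 hpf and 6.63 ± 0.66 at 9 hpf (SD, n = 2 each). In RA-treated embryos the same stages gave 2.95 ± 0.46, 8.65 ± 0.55 and 10.32 ± 0.39. The mean in RA-treated embryos at 6 hpf exceeded that in untreated embryos at 9 hpf, and the arrays of these groups did not overlap. Over all 7 groups the order of means ran from RA-treated 9 hpf through RA-treated 6 hpf, untreated 9 hpf, untreated 6 hpf, ZF4 and untreated 4 hpf to RA-treated 4 hpf. The last 4 of these lay at or below the control level, where their order carries no weight, and the arrays of the first 3 did not overlap.

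Between 6 and 9 hpf hoxb1a rose in untreated embryos by 2.16 ± 0.48, at least 2.51-fold (adjusted p = 0.0177, limma). It was the 1 of 5 members to pass, beside 10.1% of all probe sets. The adjusted p was 0.0654 and 0.102 without replicates 1 and 2 of the 6 hpf embryos and 0.138 without replicate 1 of the 9 hpf embryos. In RA-treated embryos hoxb1a rose by 5.70 ± 0.48 from 4 hpf to 6 hpf, at least 10.2-fold (adjusted p = 3.03e-05, limma), and this call held under all 11 alternatives. With hoxc1a it made 2 of 5 members that passed, where 40.5% of all probe sets passed. Between 6 and 9 hpf RA-treated embryos gained a further 1.67 ± 0.48, or 3.19-fold (adjusted p = 0.0381, limma), again as 1 of 5 members and beside 16% of all probe sets. That last call did not survive the loss of any of the 4 arrays: the adjusted p was 0.0627 and 0.259 without replicates 1 and 2 of the 6 hpf embryos, and 0.219 and 0.0789 without replicates 1 and 2 of the 9 hpf embryos.

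Between 4 and 6 hpf in untreated embryos 2 of 5 members passed the test, hoxb1a with 1.49 ± 0.48 (adjusted p = 0.0292, limma) and hoxb2a with -2.86 ± 0.89 (adjusted p = 0.0267, limma), beside 40.1% of all probe sets. In both cases all 4 arrays lay at or below the control level, so no fold is given and neither is described as a change in transcript.

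The RA effect was also compared between stages. The estimate for hoxb1a was larger at 6 hpf than at 4 hpf by 4.21 ± 0.67 on the log2 scale (adjusted p = 0.0774, limma), number 15 of 15502 by p. This difference did not pass: 0 of 5 members did, 3 had an unadjusted p under 0.05, and 0.00645% of all probe sets passed, which is 1. hoxb1a lay under the control level in both groups at 4 hpf (2.95 with RA, 2.97 without) and in untreated embryos at 6 hpf (4.47). The 4.21 is therefore not a measured size. From 6 to 9 hpf the estimate for hoxb1a differed by -0.49 ± 0.67, with only a lower bound for the effect at 6 hpf. Here 0 of 5 members passed and 0 had an unadjusted p under 0.05, beside 0.00645% of all probe sets that passed. A difference in the size of the RA effect between 6 and 9 hpf was thus not shown for any member.

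**Figure D2:**
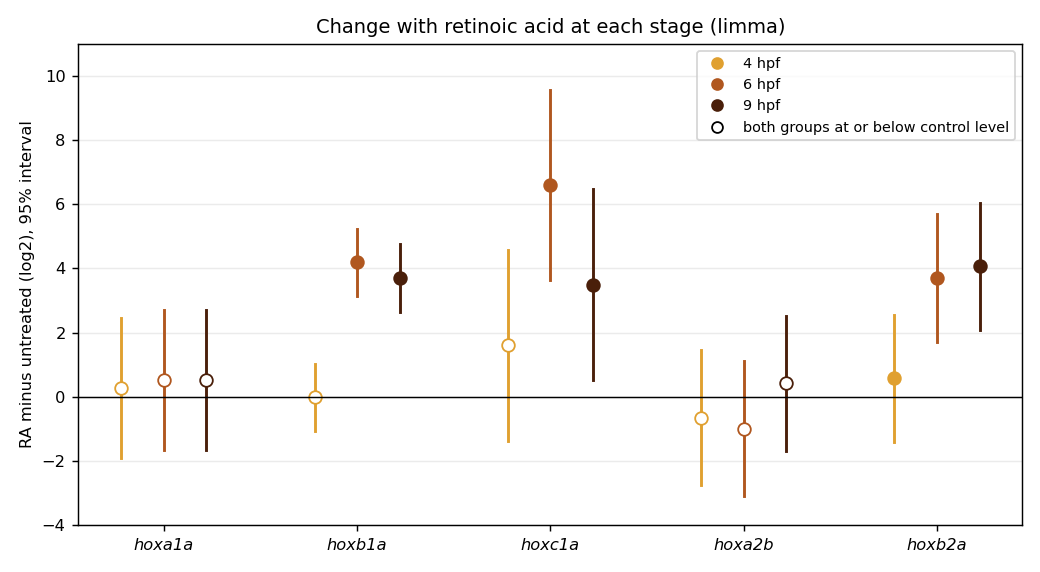
Difference between RA-treated and untreated embryos for each member at 4, 6 and 9 hpf, on the log2 scale, with the 95% interval from limma (2 arrays in each group). Open circles mark comparisons in which both groups lay at or below the control level. The intervals of hoxb1a, hoxc1a and hoxb2a lie above 0 at 6 and 9 hpf, and those of hoxa1a and hoxa2b include 0 at all 3 stages. The intervals are not adjusted for the number of probe sets, and only hoxb1a at 6 hpf had an adjusted p under 0.05. Where untreated values lay below the control level, the height of a point is not a measured size.

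The second paralog group 1 gene to stand out with RA was hoxc1a, at 6 hpf in particular. It had 7.58 and 7.25 in RA-treated embryos at 6 hpf, against 0.92 and 0.71 in untreated embryos. RA-treated embryos of 9 hpf had 6.13 and 5.07, against 0.56 and 3.65 in untreated embryos. The RA-treated arrays were above the untreated arrays at both stages, but at 9 hpf 1 of 2 RA-treated arrays lay under the control level. At 4 hpf hoxc1a had 0.63 and 4.74 in RA-treated embryos, against 0.38 and 1.79 in untreated embryos, all under the control level. In ZF4 cells it had 1.70 and 0.50.

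The difference at 6 hpf was 6.60 ± 1.34 (95% interval 3.63 to 9.57), of which at least 4.33-fold lay above the control level. Its adjusted p was 0.113 in limma, so hoxc1a did not pass, although it was number 77 of 15502 by p. On the log2(value + 32) scale it passed with an adjusted p of 0.00382, and over its 10 alternatives the adjusted p ran from 0.00382 to 0.458. At 9 hpf the difference was 3.49 ± 1.34 (adjusted p = 1.0, limma), but 1.95 without replicate 1 of the untreated embryos and 5.04 without replicate 2. Within RA-treated embryos hoxc1a rose from 4 to 6 hpf by 4.73 ± 1.34, at least 4.33-fold (adjusted p = 0.0169, limma). The change was 2.68 without replicate 1 of the 4 hpf embryos and 6.79 without replicate 2. The call was lost without replicate 1 of the 4 hpf embryos (adjusted p = 0.141) and without replicate 1 or 2 of the 6 hpf embryos (0.085 and 0.0626). From 6 to 9 hpf in RA-treated embryos the value was -1.82 ± 1.34 (adjusted p = 0.433, limma). On the log2(value + 32) scale it was -1.31 with an adjusted p of 0.0129, in a range up to 0.71 over the alternatives. By its means hoxc1a was highest in RA-treated embryos at 6 hpf (7.42 ± 0.23, SD) and next at 9 hpf (5.60 ± 0.75, SD), with no overlap of the arrays. The means of hoxb1a had the opposite order. On the unchanged values the step of hoxc1a did not pass, and 1 of 2 arrays at 9 hpf lay under the control level. Whether the members differ in timing was not tested.

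At 4 hpf the replicate values lay apart for several genes, but most of these values were under the control level. In RA-treated embryos the gaps were the following. Replicate 2 was higher than replicate 1 for hoxc1a (4.74 against 0.63), for the cluster gene hoxb3a (7.85 against 4.28) and for cyp26a1, the enzyme that degrades RA (11.77 against 10.7). For hoxb1a the order was the opposite, with 2.62 in replicate 2 and 3.28 in replicate 1. The untreated replicates went the same way for each of these genes: replicate 2 against replicate 1 was 1.79 against 0.38 for hoxc1a, 4.8 against 3.5 for hoxb3a, 9.36 against 9.21 for cyp26a1 and 2.69 against 3.25 for hoxb1a. The other members did not share an order. In RA-treated embryos replicate 2 against replicate 1 was 0.64 against 3.15 for hoxa1a, 2.31 against 0.85 for hoxa2b and 5.41 against 5.2 for hoxb2a. Apart from the 7.85 of hoxb3a and the 5.41 of hoxb2a, all values of hoxb3a and the members here lay under the control level. Among values under it the order carries no weight. The cause of these differences was not tested.

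The third paralog group 1 gene, hoxa1a, showed no such pattern. Zebrafish hoxa1a is known from small groups of midbrain neurons rather than from the early hindbrain. In embryos it stayed under the control level on all 12 arrays. At 6 hpf it had 4.57 and 2.97 in RA-treated embryos, against 3.07 and 3.43 in untreated embryos, a difference of 0.52 ± 0.98 with an interval from -1.66 to 2.70. At 9 hpf it had 4.75 and 3.72 in RA-treated embryos, against 2.98 and 4.43 in untreated embryos. The groups overlapped at both stages. At 4 hpf it had 3.15 and 0.64 in RA-treated embryos, against 1.86 and 1.37 in untreated embryos, again overlapping.

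Among the paralog group 2 genes, hoxb2a was higher with RA at the later stages. It had 5.16 and 5.98 in RA-treated embryos at 6 hpf, against 2.42 and 1.30 in untreated embryos. RA-treated embryos of 9 hpf had 8.02 and 6.68, against 4.75 and 1.83 in untreated embryos. At 4 hpf it had 5.20 and 5.41 in RA-treated embryos, against 4.76 and 4.69 in untreated embryos. At each of the 3 stages both RA-treated arrays were above both untreated arrays, but both were above the control level at 9 hpf alone. The difference at 9 hpf was 4.06 ± 0.89, at least 4.14-fold, with an unadjusted p of 0.00101 and an adjusted p of 0.617 in limma. Without replicate 2 of the untreated embryos it was 2.61, and without replicate 1 it was 5.52. At 6 hpf it was 3.71 ± 0.89 (95% interval 1.72 to 5.69, adjusted p = 0.205, limma), with 1 of 2 RA-treated arrays above the control level. Neither passed the threshold, and neither did under any of the 12 alternatives of each. At 4 hpf the difference was 0.58 ± 0.89. The 6 hpf differences of hoxb2a and hoxc1a stand beside the higher tag control medians of the RA-treated arrays at that stage (3.556 and 3.395, against 1.828 and 1.944 in untreated embryos), whose part in them was not tested.

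The lower probe set of hoxb2a gave the same order of RA-treated and untreated arrays. It had 5.0 and 3.29 in RA-treated embryos at 6 hpf, against 0.72 and 1.57 in untreated embryos. At 9 hpf it had 5.59 and 4.75 in RA-treated embryos, against 3.05 and 1.71 in untreated embryos. At 4 hpf it had 2.04 and 2.95 in RA-treated embryos, against 1.04 and -0.14 in untreated embryos. The RA-treated arrays were above the untreated ones at all 3 stages, with differences of 2.05, 3.0 and 2.79 at 4, 6 and 9 hpf, but only 1 of the 14 arrays exceeded the control level with this probe set. The probe sets gave differences of the same direction, and none passed the threshold. At 4 and 6 hpf all values of the lower probe set lay under the control level. There they give no measure of the transcript, and the shared direction is not read as support.

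Within RA-treated embryos hoxb2a averaged 5.30 ± 0.15, 5.57 ± 0.59 and 7.35 ± 0.95 at 4, 6 and 9 hpf (SD, n = 2 each). The step from 6 to 9 hpf was 1.78 ± 0.89 (adjusted p = 0.225, limma). On the log2(value + 32) scale that step was 1.3 with an adjusted p of 0.0338, in a range from 0.0338 to 0.645 over its alternatives. The step from 4 to 6 hpf was 0.27 ± 0.89, well within its spread.

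The other paralog group 2 gene, hoxa2b, was under the control level on 14 of 14 arrays. At 6 hpf it had 1.94 and 1.78 in RA-treated embryos, against 2.42 and 3.31 in untreated embryos. At 9 hpf it had 4.84 and 2.31 in RA-treated embryos, against 3.51 and 2.80 in untreated embryos. At 4 hpf it had 0.85 and 2.31 in RA-treated embryos, against 2.16 and 2.29 in untreated embryos. Since these values are no higher than those of probe sets without a zebrafish target, they give no measure of the hoxa2b transcript and no order of groups was read from them.

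The cell line held a different set of members from untreated embryos at 9 hpf. hoxa1a had 6.37 and 5.98 in ZF4 cells, against 2.98 and 4.43 in untreated embryos at 9 hpf. hoxb2a had 6.78 and 6.23 in ZF4 cells, against 4.75 and 1.83 in untreated embryos at 9 hpf. hoxb1a had 3.68 and 4.33 in ZF4 cells, against 7.09 and 6.16 in untreated embryos at 9 hpf. Of these genes, hoxa1a and hoxb2a were above the control level in the cells and not in these embryos, and hoxb1a in these embryos and not in the cells. hoxb2a was above it in RA-treated embryos at 9 hpf as well.

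All 3 of these differences passed the threshold, 3 of 5 members beside 45.4% of all probe sets, so a call is common in this comparison. hoxb1a fell in ZF4 cells by 2.62 on the log2 scale (SE 0.49, at least 2.51-fold lower, adjusted p = 0.000928, limma), and that call held under all 11 alternatives. hoxb2a was higher in ZF4 cells by 3.21 ± 0.84, at least 2.3-fold (adjusted p = 0.00818, limma). Without replicate 2 of the untreated embryos the difference was 1.76 and its adjusted p 0.0813, and without replicate 1 of the ZF4 cells it was 0.0568. With the lower probe set of hoxb2a, which had 5.24 and 4.57 in ZF4 cells against 3.05 and 1.71 in the embryos, the difference was 2.53 (adjusted p = 0.0315, limma). All of these values lay under the control level, so this is not described as a change in transcript. Only the higher probe set placed hoxb2a above the level in ZF4 cells. hoxa1a was higher by 2.46 ± 0.92, at least 1.83-fold (adjusted p = 0.0462, limma), on the probe set whose identity was not checked. Its adjusted p was 0.254 without replicate 1 of the embryos, 0.171 and 0.112 without replicates 1 and 2 of the ZF4 cells, and 0.0594 with the arrays shifted to a common median. hoxc1a and hoxa2b lay at or below the control level in the cells and in the embryos.

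The remaining 37 hox genes were set beside the members by paralog group. At 6 hpf, 3 of 8 genes of groups 3 and 4 rose with RA, 4 of 8 genes of groups 5 and 6 and 0 of 21 genes of groups 7 to 13, against 1 of the 5 members and 0.284% of all probe sets. None of the members or of the genes of groups 3 to 6 was above the control level in untreated embryos at that stage. With each value under the control level raised to it, so that the differences are lower bounds, the median difference with RA on the log2 scale was 0.34 over the members, 1.29 over groups 3 and 4, 2.0 over groups 5 and 6, 0.0 over groups 7 to 13 and 0.0 over all probe sets. Within the cluster that holds hoxb1a and hoxb2a, hoxb3a rose by 6.17 ± 0.91 (at least 30.9-fold), with 10.31 and 10.19 in RA-treated embryos against 4.31 and 3.85 in untreated embryos. At 9 hpf no hox gene passed, and the medians on the same scale were 0.41 over the members, 1.37 over groups 3 and 4, 0.4 over groups 5 and 6, 0.0 over groups 7 to 13 and 0.0 over all probe sets. Whether the members differ from the other hox genes in their response was not tested.

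**Figure D3:**
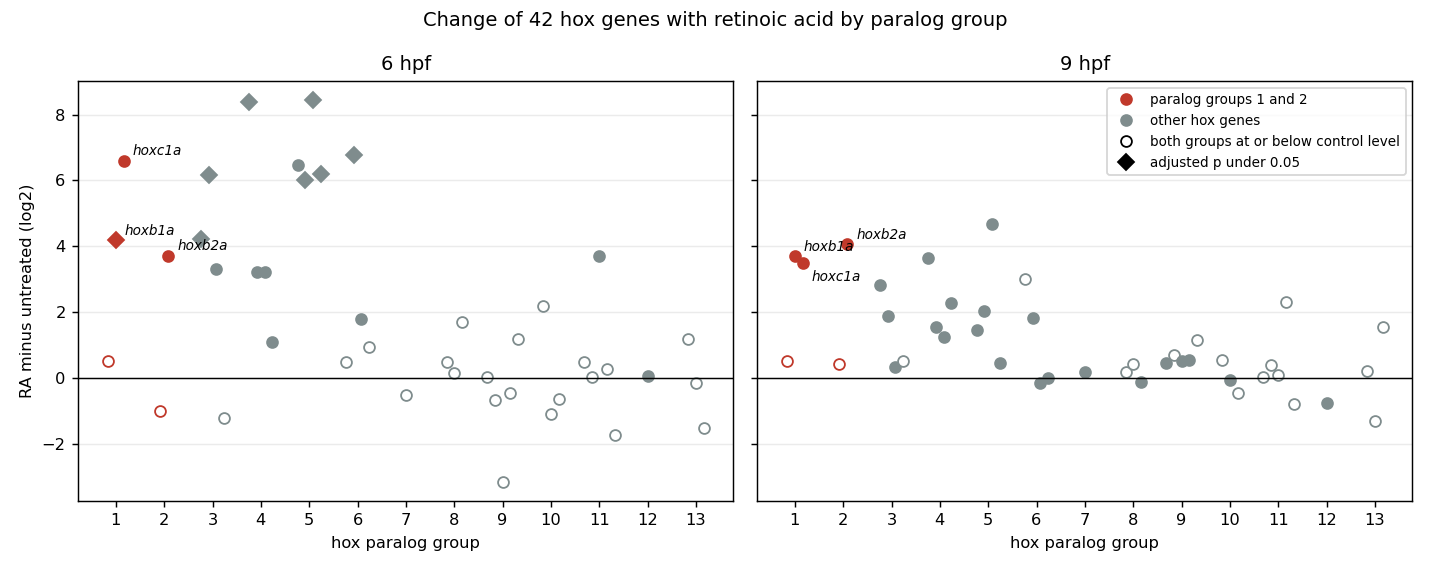
Difference between RA-treated and untreated embryos on the log2 scale for 42 hox genes, by paralog group, at 6 hpf (left) and 9 hpf (right). Each point is 1 gene, red for paralog groups 1 and 2 and grey for the others. Open points mark genes at or below the control level in both groups, and diamonds mark an adjusted p under 0.05. At 6 hpf 1 member and 7 other hox genes are diamonds, and at 9 hpf there are none. Where untreated values lay below the control level, the height of a point is not a measured size.

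RA signalling itself was checked on cyp26a1, a direct target of the RA receptors. It had 10.7 and 11.77 in RA-treated embryos at 4 hpf, against 9.21 and 9.36 in untreated embryos, and rose by 1.95 ± 0.26 at a stage when no member was above the control level (adjusted p = 0.0279, limma). At 6 hpf it had 12.1 and 12.11 in RA-treated embryos, against 10.32 and 10.22 in untreated embryos, and rose by 1.84 ± 0.26. At 9 hpf it had 12.21 and 12.21 in RA-treated embryos, against 11.47 and 11.53 in untreated embryos. The RA-treated embryos were higher than the untreated ones at every stage. Of 18 measured genes of RA metabolism, binding and signalling, 1 was higher and 0 lower with RA at 4 hpf. Of all probe sets 0.0903% passed there. At 6 hpf 2 were higher and 1 lower with RA (0.284% of all probe sets passed). None passed at 9 hpf (0%), where limma gave 6 of the 18, and 424 of all 15502 probe sets, an unadjusted p under 0.05. Beside cyp26a1, nrip1b, a nuclear receptor corepressor gene, was higher with RA at 6 hpf by 1.90 ± 0.25 (3.72-fold). There aldh1a2, which makes RA from retinal, was lower by 2.77 on the log2 scale (6.82-fold lower). From 4 to 6 hpf the mean of nrip1b fell less with RA (9.92 to 8.48) than in untreated embryos (9.93 to 6.58). That of aldh1a2 rose less with RA (3.25 to 7.24) than in untreated embryos (4.2 to 10.01), from values under the control level at 4 hpf.

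Hox proteins of these paralog groups bind DNA with TALE homeodomain partners, the Pbx, Meis and Pknox proteins. At 6 hpf, where 0.284% of all probe sets passed, 2 of 12 measured TALE genes rose with RA, meis2b by 4.56 ± 0.45 (at least 12.8-fold) and meis3 by 3.41 ± 0.53 (at least 6.62-fold). At 9 hpf limma called 0 of 12 (0% of all probe sets), and none of the 12 had an unadjusted p under 0.05. In untreated embryos 3 of 12 TALE genes rose between 6 and 9 hpf, beside 10.1% of all probe sets. The lower bounds were 13.8-fold for meis1b, 17.8-fold for meis2b and 27.5-fold for meis3, all of them under the control level at 6 hpf, and hoxb1a rose over the same interval. Of 20 measured hindbrain patterning genes, 2 rose and 1 fell with RA at 6 hpf, again beside 0.284% of all probe sets. The nuclear receptor gene nr2f5 rose by 4.45 ± 0.62 (at least 11-fold) and znf503 by 1.42 ± 0.19 (2.68-fold), while the Iroquois gene irx7 fell by 1.58 on the log2 scale (2.99-fold lower). At 9 hpf limma called 0 of 20 hindbrain genes, beside 0% of all probe sets, with 2 at an unadjusted p under 0.05.

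The genes most like each member were found by Pearson correlation over the 14 arrays, on values raised to the control level, among 6926 genes. These coefficients are a description: the arrays share stages and treatments, and no p is given. Raised values are tied, so a coefficient rests mainly on the arrays above the level, 6 for hoxb1a, 3 for hoxc1a and 6 for hoxb2a. For hoxb1a the nearest were dhrs3a (r = 0.989), which reduces retinal to retinol and so limits RA production, then dlb, a Delta ligand of Notch (0.93), and the receptor gene fgfr3 (0.904). dhrs3a had 7.97 and 6.78 in RA-treated embryos at 6 hpf, against 2.76 and 1.96 in untreated embryos. At 9 hpf dhrs3a had 9.1 and 8.98 in RA-treated embryos, against 6.9 and 5.79 in untreated embryos. It was above the control level on the same 6 arrays as hoxb1a, which follows from its choice by correlation. In ZF4 cells dhrs3a averaged -0.54.

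**Figure D4:**
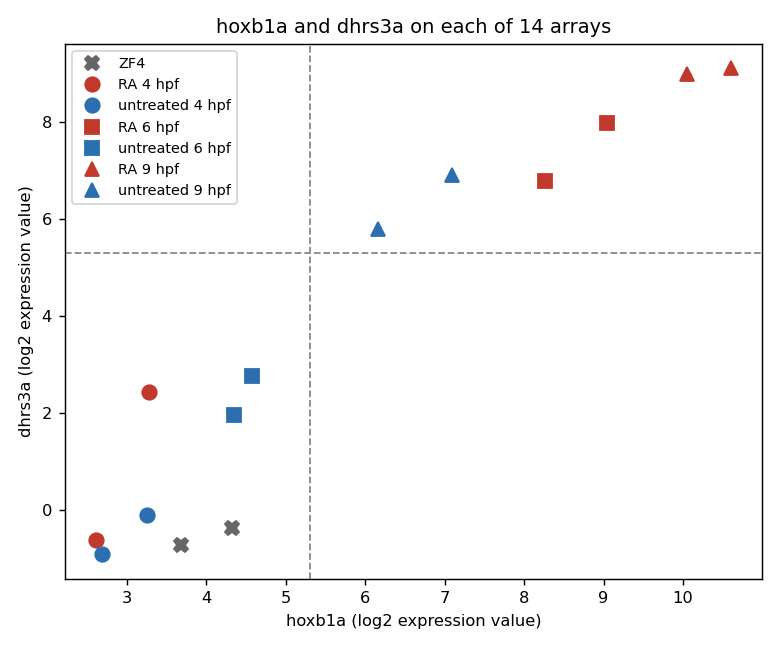
Log2 expression values of hoxb1a (horizontal) and dhrs3a (vertical) on each of 14 arrays, marked by stage and treatment, with the control level of 5.30 dashed on both axes. The 6 arrays of RA-treated embryos at 6 and 9 hpf and of untreated embryos at 9 hpf lie above both lines, and the other 8 lie below both. The gene dhrs3a was chosen by its correlation with hoxb1a.

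For hoxc1a the nearest were hoxa5a (r = 0.989), eno4 (0.963) and cyp24a1, which degrades vitamin D (0.96). hoxa5a averaged 8.83 in RA-treated embryos at 6 hpf and 2.37 in untreated embryos at 6 hpf. At 9 hpf it averaged 5.33 in RA-treated embryos and 3.88 in untreated embryos. Its highest mean fell in the same group as that of hoxc1a, which follows from its choice by correlation. For hoxb2a they were the growth factor gene pdgfaa (0.961), irx5a (0.915) and the myosin light chain gene mylz3 (0.848). pdgfaa averaged 7.62 in RA-treated embryos at 9 hpf and 5.21 in untreated embryos at 9 hpf, and 6.55 in ZF4 cells. For hoxa1a the measure separates little, since only the 2 ZF4 arrays exceeded the control level and 40 genes had r over 0.99, with exoc6, rorab and bmp5 first.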

How the data were processed

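The authors hybridised total RNA to Affymetrix Zebrafish GeneChip arrays, and the log2 expression values they deposited, 1 per probe set and array, were used. Per the labels and methods, they were made with mas5 background correction and invariantset normalization in the R package affy. The probe summary and mismatch correction are not given in the sources used here, nor were the study's present calls used. For untreated embryos the methods give 9 hpf as the one stage run on this platform, while the labels give 4, 6 and 9 hpf and were followed.

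Of 15617 probe sets, 115 controls were left out and 15502 tested. A single gene was named for 10795, several for 135 and none for 4572, and 10711 matched RefSeq (GRCz12tu) by gene ID. Group means were fitted with limma 3.58.1 in R 4.3.3 to the 12 embryo arrays, or to all 14 for ZF4, with an intensity trend and two-sided tests. Benjamini-Hochberg adjustment ran over all 15502, with a threshold of 0.05. The number of arrays limits the precision. The procedure was tested on simulated data, with changes placed only in probe sets whose mean exceeded the control level. Of the members hoxb1a alone has such a mean, so the simulation does not cover the others.

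The members and gene lists were chosen with earlier results of these data known. The text names the 5 members, the 3 genes most like each member above the control level, and up to 4 genes per context list that passed, passing over code names. hoxb3a and dhrs3a values were added after they were seen. Alternatives were quantile normalization, a common median, log2(value + 32), no trend, a filter at the control level, the replicate number as a block, other arrays in the model, other control levels, the mean of a gene's probe sets and each array left out. The lower probe set of hoxb2a, a crossed block and list medians with values raised to the control level were added after seeing the data.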

Additional observations from a re-analysis of the deposited data

How the results depend on the processing

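With 2 arrays a group, leaving out a single array leaves no replicate in its group, and several calls were then lost. Several members lie near the control level, where a ratio has only a bound. Of the member changes under alternatives, 246 kept their direction and side of the threshold, 20 lost the threshold, 5 gained it and 7 changed sign. The 246 include changes that had not passed and had no threshold to lose. hoxb1a lost its call under 3 of 11 alternatives each for RA at 6 hpf and for untreated embryos from 6 to 9 hpf. In RA-treated embryos its losses were 5 of 11 from 6 to 9 hpf and 0 of 11 from 4 to 6 hpf. Over that last step hoxc1a had 3 losses of 10. In ZF4 cells the losses were 0 of 11 (hoxb1a), 2 of 12 (hoxb2a) and 4 of 10 (hoxa1a). The untreated 4 to 6 hpf calls were not counted. The cause of a change was not tested, except that leaving out an array or filtering leaves fewer arrays or genes.

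The number of the 5 members that passed changed as follows. On log2(value + 32) it was 2 for RA at 6 hpf (1 otherwise), 1 for RA at 9 hpf (0 otherwise), 3 for RA-treated embryos from 6 to 9 hpf (1 otherwise) and 0 for untreated embryos from 4 to 6 hpf (2 otherwise). That last comparison gave 1 with quantile normalization, with the filter, with the mean of the probe sets and with the lower probe set of hoxb2a. With the filter, 1 passed for RA-treated embryos from 4 to 6 hpf (2 otherwise) and 1 for ZF4 cells (3 otherwise), since hoxb1a alone was then tested. Without the trend, 0 passed for RA-treated embryos from 6 to 9 hpf (adjusted p of hoxb1a 0.0517). With each array left out, the number was 0 to 1 for RA at 6 hpf, 0 to 1 for untreated embryos from 4 to 6 hpf and from 6 to 9 hpf, 1 to 2 for RA-treated embryos from 4 to 6 hpf, 0 to 0 for those from 6 to 9 hpf, and 1 to 2 for ZF4 cells.

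The difference of the RA effect between 6 and 9 hpf changed sign to 0.31 for hoxb1a on log2(value + 32) (-0.49 otherwise). For hoxb2a it was -0.21 with the lower probe set (0.36 otherwise) and ran from -1.1 to 1.81 with arrays left out. The step of hoxb2a from 4 to 6 hpf in RA-treated embryos ran from -0.15 to 0.68 with arrays left out. With each array's own 95th percentile as the control level, 1 member was above it in RA-treated embryos at 4 hpf (0 otherwise).

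The replicate numbers did not pair the samples at all 3 stages: deviations of same-numbered arrays correlated at 0.2718, -0.0234 and -0.3822 between RA-treated and untreated embryos at 4, 6 and 9 hpf. With the replicate block, 1 member passed for RA at 9 hpf, hoxb1a with an adjusted p of 0.0357, and it was the 1 probe set that passed; the block changed no other count of members. A crossed block at 9 hpf gave 0 probe sets.

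The number of all probe sets that passed was, for RA at 4 hpf, 14, but 5 with quantile normalization, 0 on log2(value + 32), 47 without the trend, 7 with the filter, 8 with the block, 26 with all 14 arrays and 0 to 114 with arrays left out. For RA at 6 hpf it was 44, but 93 on log2(value + 32) and 1 to 19 with arrays left out. For RA at 9 hpf it was 0, but 4 on log2(value + 32). For the difference between 4 and 6 hpf it was 1, but 3, 9, 12, 2 and 18 with quantile normalization, log2(value + 32), no trend, the filter and all 14 arrays, and 1 to 27 with arrays left out. For that between 6 and 9 hpf it was 1, but 4 on log2(value + 32) and 2 without the trend. With arrays left out it was 574 to 903 for untreated embryos from 6 to 9 hpf (1567 otherwise) and 945 to 1628 for RA-treated embryos (2485 otherwise).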

Other observations

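ZF4 cells differed from untreated embryos at 9 hpf in TALE genes and in hindbrain patterning genes. Of 12 measured TALE genes, 4 were higher and 5 lower in the cells, and 10 were above the control level in the cells against 6 in the embryos. The Meis genes divided: meis1a was higher in ZF4 cells by 4.25 ± 0.52 and meis2a by 3.61 ± 0.90 (at least 6.86-fold). The log2 changes of meis3 and meis2b were -6.48 ± 0.61 (at least 27.5-fold lower) and -5.44 ± 0.45 (at least 17.8-fold lower). meis3 and meis2b lay under the control level in the cells and meis2a in the embryos, so their log2 differences are not measured sizes. For meis1a 1 of 2 embryo arrays was above the level, so no fold is given. Of 20 hindbrain patterning genes, 1 was higher in the cells, nr2f2 by 3.68 ± 0.54 (at least 9.66-fold), and 13 were lower. These are counts beside 45.4% of all probe sets that passed in that comparison.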
